A study of Mus musculus with 14 samples.

Results

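The genes of the enzymes that add and remove methyl and acetyl groups on histones were examined in fully grown mouse oocytes at the germinal vesicle (GV) stage. Members were the genes whose array symbol began with Kdm, Setd, Kmt2, Ehmt, Suv39h, Prdm, Nsd, Prmt, Kat, Hdac or Sirt and a matching number or suffix, without Hdac1. This gave 66 genes on 115 probes, of 16593 genes and 25697 probes on the array. Enzymes listed under another symbol were not counted. The symbols also took in genes that are described below by other roles, such as Prdm14, Prmt3, Sirt3 and Sirt5. All oocytes carried, at the Rosa26 locus, human AGO2 with myc and GFP tags behind a lox-stop-lox cassette, where Cre removes the stop and the Argonaute protein is made. Zp3-Cre-positive oocytes express Cre from the Zp3 promoter, which is active in growing oocytes, and Zp3-Cre-negative oocytes keep the stop. There were 4 Cre-positive and 4 Cre-negative samples with no microRNA added (the first set). Another 3 Cre-positive and 3 Cre-negative samples were injected with 2 µM miR-15a mimic (the second set). The labels do not say what was injected in the first set. Mice had received 5 units of PMSG 48 h before injection, all oocytes were kept in 2 µM milrinone, which holds meiotic arrest, and ages were not given. No group carried Cre without the AGO2 cassette, so their effects cannot be told apart. The labels do not say whether replicates came from separate animals or from pools, so the p-values measure the spread between these samples, which may be technical.

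Histone methyltransferases and acetyltransferases write marks on histone tails, and demethylases, deacetylases and sirtuins remove them. During oocyte growth these enzymes shape the chromatin on which DNA methylation and imprints are laid down. The full-grown oocyte is largely silent in transcription, so its transcripts are a store used through maturation and the first embryonic divisions.

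The mimic was a synthetic form of miR-15a, whose RefSeq mature sequence is shown because it defines the second set, with its seed (bases 2 to 8) in capitals. Targets of this seed were not searched for among the members.
mmu-miR-15a-5p: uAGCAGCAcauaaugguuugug

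The labelled cell type was checked first. All 13 oocyte markers, among them the zona pellucida genes Zp1, Zp2 and Zp3, were detected on every array. Of 14 granulosa and cumulus markers, 1 was detected on every array of the first set and 4 on every array of the second. Of 11 theca and stroma markers it was 1 in either set, and of 6 blood and immune markers 2 in either set. On at least 1 array of the first set, 10 granulosa and cumulus, 4 theca and stroma and 2 blood and immune markers were detected. In the second set these counts were 6, 2 and 3. The summed signal of the oocyte markers was 9220 to 11700 in Cre-positive and 9370 to 10400 in Cre-negative oocytes without mimic. With mimic it was 30500 to 33400 in Cre-positive and 28900 to 30300 in Cre-negative oocytes, where the groups did not overlap, and the part of this in the members' values was not tested. The summed signal of the granulosa and cumulus markers was 362 to 405 in Cre-positive and 356 to 368 in Cre-negative oocytes without mimic, and 776 to 866 and 749 to 792 with mimic. For the blood and immune markers it was 252 to 282 in Cre-positive and 253 to 308 in Cre-negative oocytes without mimic. With mimic the latter sums were 656 to 775 and 683 to 803. The floor that remains after background correction was not subtracted from any of these sums, so undetected markers also add to them. Ago2 was higher in Cre-positive oocytes by 1.97 ± 0.111 SE on the log2 scale without mimic (limma adjusted p = 2.04e-08) and by 2.35 ± 0.114 SE with mimic (limma adjusted p = 0.000338). Mean raw intensity per array was 118 to 151 without mimic and 339 to 380 with mimic. The arrays with mimic were those of the second table, so mimic and table cannot be told apart, and no level was tested between the sets. In the first set Cre_pos replicate 4 scored 24.1 on the leading principal component and the 7 other arrays -6.75 to 2.68. It was the lowest of its group for 17 and the highest for 18 of the 52 members tested. The effects named below for Ehmt1, Hdac4, Kat2a, Kdm4a, Kdm5c, Setd2 and Sirt5 are given with and without it. Cre_pos replicate 1 had the fewest detected probes (11652) and the fewest detected members (48), and was the lowest of its group for 21 of the 52 members. Fewer cells and less RNA per cell cannot be told apart in such bulk samples.

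Most of the members had a transcript above background. A probe was counted as detected at a detection p under 0.05, and the probe read for a gene was the brightest that passed the filter or, where none passed, the brightest of all. Of the 66 members, 45 (68.2%) were detected on every array of both sets, against 43% of all genes on the array. Another 13 were detected on some arrays, and 8 (12.1%) on none of the 14, against 27.6% of all genes. Within the first set 46 members were detected on every array and 9 on none, against 43.7% and 31.1% of all genes. Within the second set 50 were detected on every array and 11 on none, against 48% and 37.7% of all genes. These shares describe the array and its probes, and signals of different probes were not ranked against each other.

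The 8 members without detection, named after their values were seen, were the class IIa deacetylases Hdac5 and Hdac7, the demethylases Kdm4c, Kdm4d and Kdm5d, the arginine methyltransferases Prmt6 and Prmt8, and Prdm14. Prdm14 is a transcriptional regulator of primordial germ cells and pluripotent cells. Kdm5d lies on the Y chromosome, which oocytes of XX females lack, and its probe serves as an internal check. Its log2 signal was 4.21, 4.14, 4.21 and 4.18 in Cre-positive oocytes, against 4.18, 4.14, 4.22 and 4.15 in Cre-negative oocytes without mimic. The Kdm5d values lay close to the floor set by the background correction and the groups overlapped. Its X-linked relative Kdm5c was detected on all 14 arrays.

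The region around the start site was printed for Kdm5c and Kdm5d, relatives that differed in detection, and for Sirt1 and Setd5, both detected on every array, with the most and the fewest CG dinucleotides among the members. Each sequence is the RefSeq promoter window of GRCm38.p6, 250 bases before to 50 bases after the annotated start, written 5′ to 3′ on the gene's strand with every CG in capitals.
Kdm5c: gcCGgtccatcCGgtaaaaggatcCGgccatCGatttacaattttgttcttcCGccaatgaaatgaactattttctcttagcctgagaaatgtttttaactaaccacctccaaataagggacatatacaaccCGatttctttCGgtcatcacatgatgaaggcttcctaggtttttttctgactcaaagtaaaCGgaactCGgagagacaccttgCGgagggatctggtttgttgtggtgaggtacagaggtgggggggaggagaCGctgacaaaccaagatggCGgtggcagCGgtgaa
Kdm5d: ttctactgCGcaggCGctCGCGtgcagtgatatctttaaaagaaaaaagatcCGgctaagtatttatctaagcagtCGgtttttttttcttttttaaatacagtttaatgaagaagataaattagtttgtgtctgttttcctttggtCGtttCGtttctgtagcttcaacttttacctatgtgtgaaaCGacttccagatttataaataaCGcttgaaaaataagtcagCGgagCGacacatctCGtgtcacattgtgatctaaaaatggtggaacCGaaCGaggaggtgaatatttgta
Sirt1: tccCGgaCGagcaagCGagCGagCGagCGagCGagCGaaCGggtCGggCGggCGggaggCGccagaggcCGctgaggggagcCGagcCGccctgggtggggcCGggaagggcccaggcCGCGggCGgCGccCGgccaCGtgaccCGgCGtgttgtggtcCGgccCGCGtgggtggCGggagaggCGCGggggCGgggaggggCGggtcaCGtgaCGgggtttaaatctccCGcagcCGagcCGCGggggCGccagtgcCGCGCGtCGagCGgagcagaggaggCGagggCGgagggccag
Setd5: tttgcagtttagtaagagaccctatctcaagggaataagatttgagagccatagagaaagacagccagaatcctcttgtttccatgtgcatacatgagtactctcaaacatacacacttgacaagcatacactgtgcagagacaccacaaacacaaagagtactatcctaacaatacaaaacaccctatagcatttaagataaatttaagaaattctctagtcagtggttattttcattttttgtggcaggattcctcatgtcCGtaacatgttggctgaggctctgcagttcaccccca
The windows lie at chrX:152232977-152233276 on the plus strand for Kdm5c, chrY:897538-897837 on the plus strand for Kdm5d, chr10:63338986-63339285 on the minus strand for Sirt1 and chr6:113104685-113104984 on the plus strand for Setd5.

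The Kdm5d window held 15 CG dinucleotides and the Kdm5c window 13. Oocytes of XX females lack Kdm5d, so this pair cannot show how CG content goes with detection. Sirt1 held 47 and Setd5 held 1. Of the 66 members 58 had a RefSeq promoter entry. Where a gene had several annotated starts its CG count is the mean over them. Members detected on every array of both sets had a median of 22.2 CG dinucleotides per 300-base window (n = 40), close to the 21.0 of all genes with that detection (n = 5896). The 7 members detected on no array, Kdm5d among them, had a median of 17.0 and a lowest value of 14.0. The median was 5.0 for the 3568 genes of the array with no detection. The 11 members in between had a median of 17.0, against 12.0 for 3872 genes. Across detection classes the members' medians thus differed less (22.2, 17.0 and 17.0) than those of all genes (21.0, 12.0 and 5.0). These are descriptions of the windows, with no test.

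**Figure D1:**
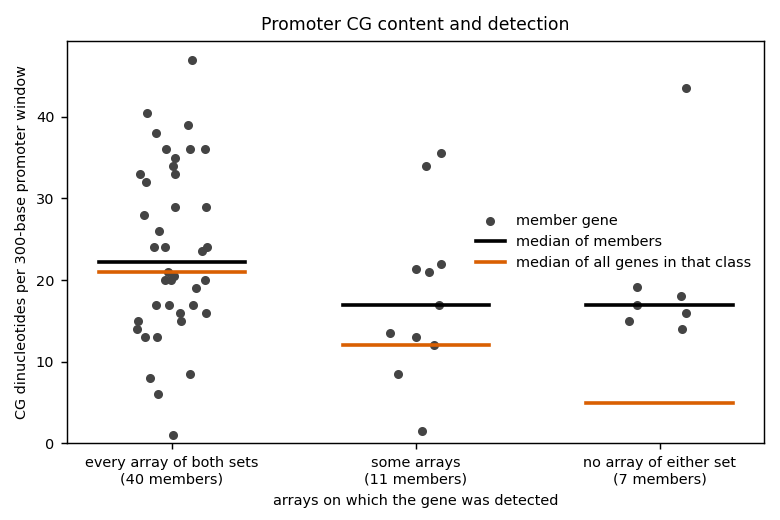
CG dinucleotides per 300-base promoter window (vertical axis) for the 58 members with an entry, by the arrays on which the gene was detected. Points are member genes, black lines their medians (22.2, 17.0 and 17.0) and orange lines the medians of all genes in the same class (21.0, 12.0 and 5.0).

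The sequence GGGCGG, known as the GC box, was searched on both strands. A gene counted if the window of any of its annotated starts held the sequence. It was found for 67.2% of the 58 members and 53.6% of the 13336 genes on the array with a promoter entry. CCAAT on either strand was found for 55.2% and 42.5%, and TATAAA on either strand for 8.62% and 14.3%. Among genes detected on every array GGGCGG was found for 72.5% of the members and 69.1% of all genes. Among undetected genes it was found for 5 of 7 members (71.4%), against 31.1% of all genes. A match is a run of letters and is not a bound site.

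Among methyltransferase genes, Kmt2b, whose product places much of the H3K4 trimethylation of growing oocytes, was detected on all 14 arrays. Its log2 signal was 6.87, 6.91, 6.94 and 7.01 in Cre-positive oocytes, against 7.04, 6.98, 7.03 and 6.75 in Cre-negative oocytes without mimic. The groups overlapped, with Cre_neg replicate 4 the lowest of the 8. Setd1a, a catalytic subunit of another H3K4 methyltransferase complex, was also detected throughout, and its lowest value without mimic was in Cre_pos replicate 4. Setd7, which adds a single methyl group to H3K4 and to other proteins, was detected on 1 array of the first set and on none of the second. Prdm9, which marks the sites of meiotic recombination by H3K4 methylation, was detected on 7 of 8 arrays without mimic and on 6 of 6 with mimic.

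All 5 H3K9 methyltransferase genes were detected in both sets, Ehmt2 least often. Setdb1, which silences retrotransposons, had log2 signals of 7.22, 7.52, 7.23 and 7.33 in Cre-positive oocytes, against 7.11, 7.12, 7.38 and 7.20 in Cre-negative oocytes without mimic, and the groups overlapped. Ehmt1, the partner of G9a, had 8.38, 8.52, 8.47 and 7.47 in Cre-positive oocytes, against 8.64, 8.55, 8.33 and 8.28 in Cre-negative oocytes. Cre_pos replicate 4 had the lowest of the 8 Ehmt1 values, 7.47, and the next was 8.28. Ehmt2, the gene of G9a itself, was dim: its probe was detected on 8 of 8 arrays without mimic, and the different probe used with mimic on 3 of 6. Suv39h2, which trimethylates H3K9 in pericentric chromatin, was detected on all 14 arrays.

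Both measured H3K36 methyltransferase genes were detected on all 14 arrays. Setd2, whose H3K36 trimethylation guides DNA methylation in oocytes, had log2 signals of 6.20, 6.51, 6.07 and 6.77 in Cre-positive oocytes, against 6.22, 6.25, 6.46 and 6.13 in Cre-negative oocytes without mimic. Nsd1, which dimethylates H3K36, had 7.97, 7.83, 7.80 and 7.43 in Cre-positive oocytes, against 7.83, 7.82, 7.88 and 7.33 in Cre-negative oocytes. In both genes the 2 groups overlapped. Of 8 arginine methyltransferase genes, 6 were tested in each set. Prmt1, the main enzyme of asymmetric arginine dimethylation, and Prmt5, the main enzyme of symmetric dimethylation, were both detected on all 14 arrays. The levels of these genes on each array are drawn in the plot of methyltransferase and demethylase signals.

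**Figure D2:**
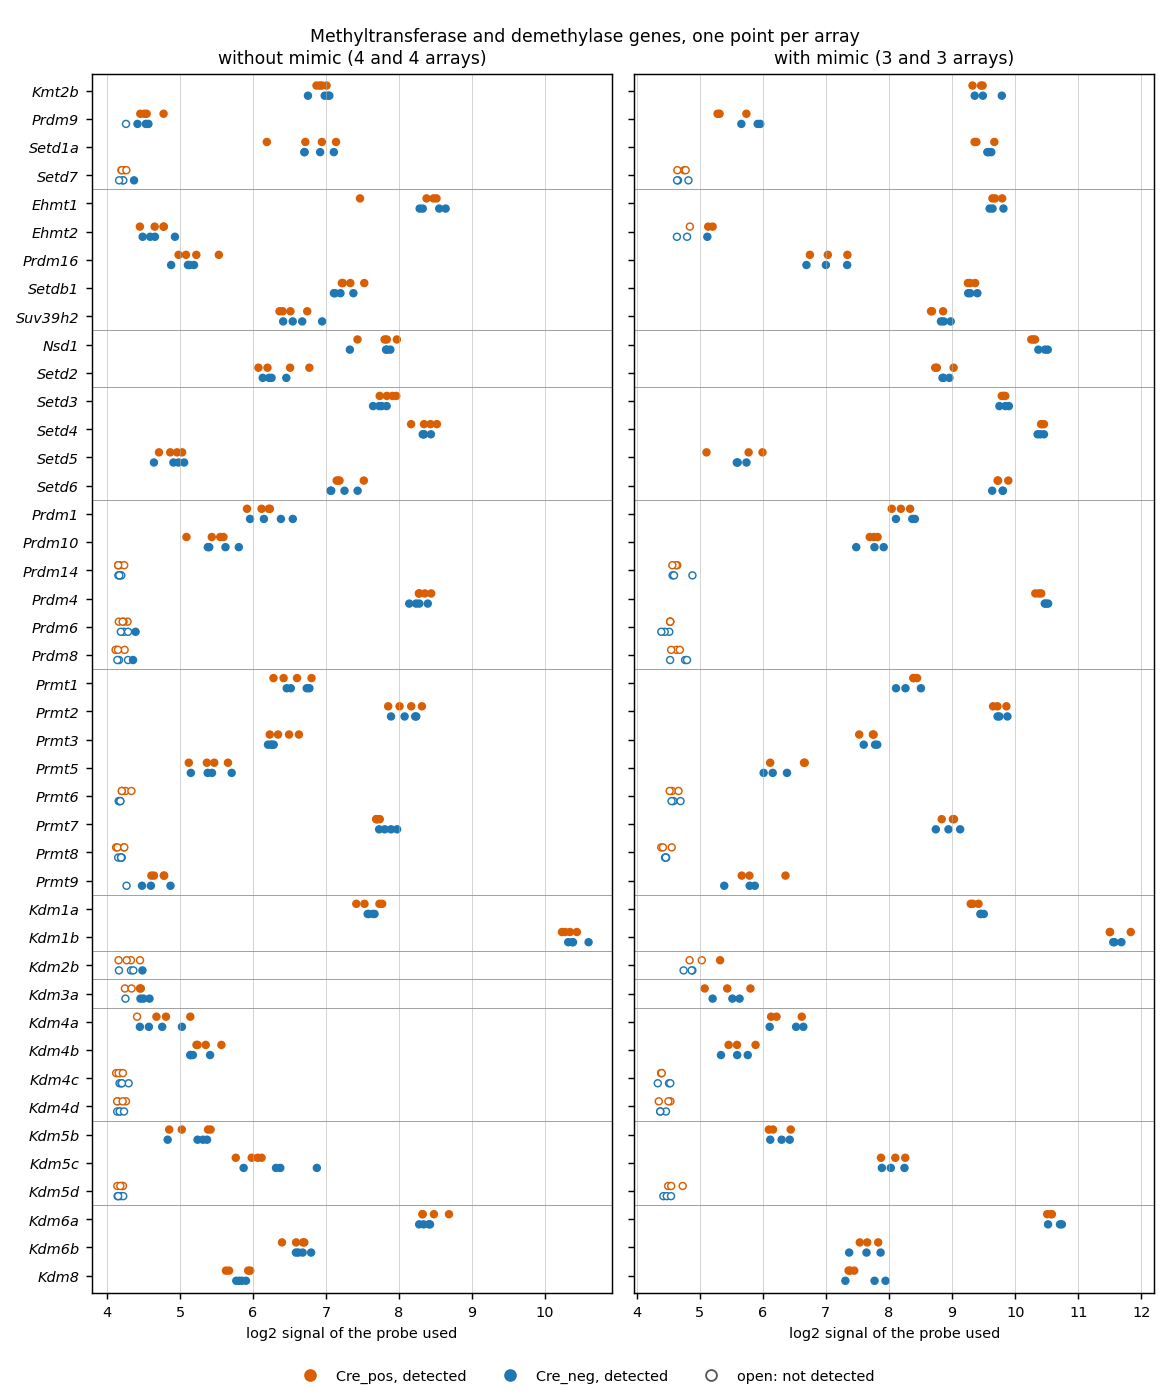
Log2 signal of the probe used for each methyltransferase and demethylase gene (rows, grouped by role) on each array, without mimic on the left and with mimic on the right. Cre_pos arrays (orange) are drawn above Cre_neg arrays (blue) and open circles were not detected. Rows such as Kdm5d and Prdm14 are open on every array.

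Among demethylase genes, both members of the LSD family were detected on all 14 arrays. Kdm1b, which removes H3K4 methylation and is needed for DNA methylation of maternally imprinted genes in oocytes, had log2 signals of 10.35, 10.28, 10.44 and 10.23 in Cre-positive oocytes, against 10.32, 10.60, 10.39 and 10.38 in Cre-negative oocytes without mimic. With mimic it had 11.50, 11.50 and 11.83 in Cre-positive oocytes, against 11.55, 11.57 and 11.68 in Cre-negative oocytes. The groups overlapped in both sets, and all 4 of its probes were detected on every array. Kdm1a, which is needed for early embryonic development from the maternal store, had 7.73, 7.77, 7.53 and 7.42 in Cre-positive oocytes, against 7.59, 7.57, 7.64 and 7.67 in Cre-negative oocytes without mimic. The Cre-negative values of Kdm1a lay inside the range of the Cre-positive ones.

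The Jumonji-type demethylases were more mixed. Kdm6a, the X-linked demethylase of H3K27, was detected on all 14 arrays, with 8.32, 8.48, 8.32 and 8.69 in Cre-positive oocytes, against 8.28, 8.41, 8.43 and 8.34 in Cre-negative oocytes without mimic. Kdm5b, which removes H3K4 trimethylation in the early embryo, was also detected throughout. Kdm4a, which removes H3K9 trimethylation and is needed for developmental competence of the oocyte, was detected on 7 of 8 arrays without mimic and on 6 of 6 with mimic. Its log2 signal was 4.41, 4.67, 4.80 and 5.14 in Cre-positive oocytes, against 5.02, 4.57, 4.75 and 4.45 in Cre-negative oocytes without mimic, with the lowest value, in Cre_pos replicate 1, not detected. Of the 4 KDM4 genes, Kdm4a and Kdm4b could be tested, and Kdm4c and Kdm4d were not above background on any array. Kdm2b was detected on 1 array of each set.

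Of 6 acetyltransferase genes in the role list, 5 were detected on all 14 arrays. Kat8, which acetylates H4K16, had log2 signals of 8.44, 8.63, 8.58 and 8.47 in Cre-positive oocytes, against 8.78, 8.68, 8.59 and 8.65 in Cre-negative oocytes without mimic. Here 3 of the 4 Cre-positive values lay below the lowest Cre-negative value, 8.59, and the fourth, 8.63, did not. Kat6b, an H3 acetyltransferase, had 7.75, 7.84, 7.92 and 7.97 in Cre-positive oocytes, against 7.72, 7.60, 7.81 and 7.80 in Cre-negative oocytes. Kat2b, relative of the detected Kat2a, was detected on none of the 8 arrays without mimic and on 1 of 6 with mimic. Kat14, which belonged to no role list, was detected on all 14 arrays.

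Among deacetylase genes, Hdac2, the main class I enzyme of mouse oocytes together with Hdac1, was detected on all 14 arrays. Its log2 signal was 10.10, 10.11, 10.29 and 9.84 in Cre-positive oocytes, against 10.21, 10.17, 10.13 and 10.17 in Cre-negative oocytes without mimic. The Cre-negative values lay close together, inside the Cre-positive range. Hdac3, the deacetylase of the nuclear receptor corepressors, and Hdac8, which acts on cohesin, were also detected throughout. Class IIa was sparse, with Hdac4 detected on all arrays and Hdac5 and Hdac7 on none. Hdac9 was detected on 1 of 8 arrays without mimic and on 6 of 6 with mimic, a difference that cannot be told apart from the change of table. Hdac10 and Hdac11 were each detected on 4 of 8 arrays without mimic and on 1 of 6 with mimic, so detection was not higher throughout in the table with the higher raw intensity.

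The 6 sirtuin genes, which encode NAD-dependent deacylases, were detected on all 14 arrays. Sirt1, a nuclear deacetylase, had log2 signals of 5.79, 6.28, 5.87 and 6.14 in Cre-positive oocytes, against 6.03, 5.98, 6.07 and 5.92 in Cre-negative oocytes without mimic. Sirt3, the main mitochondrial deacetylase, had 4.86, 4.88, 4.98 and 5.31 in Cre-positive oocytes, against 4.96, 5.19, 4.95 and 5.25 in Cre-negative oocytes. In both genes the groups overlapped.

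**Figure D3:**
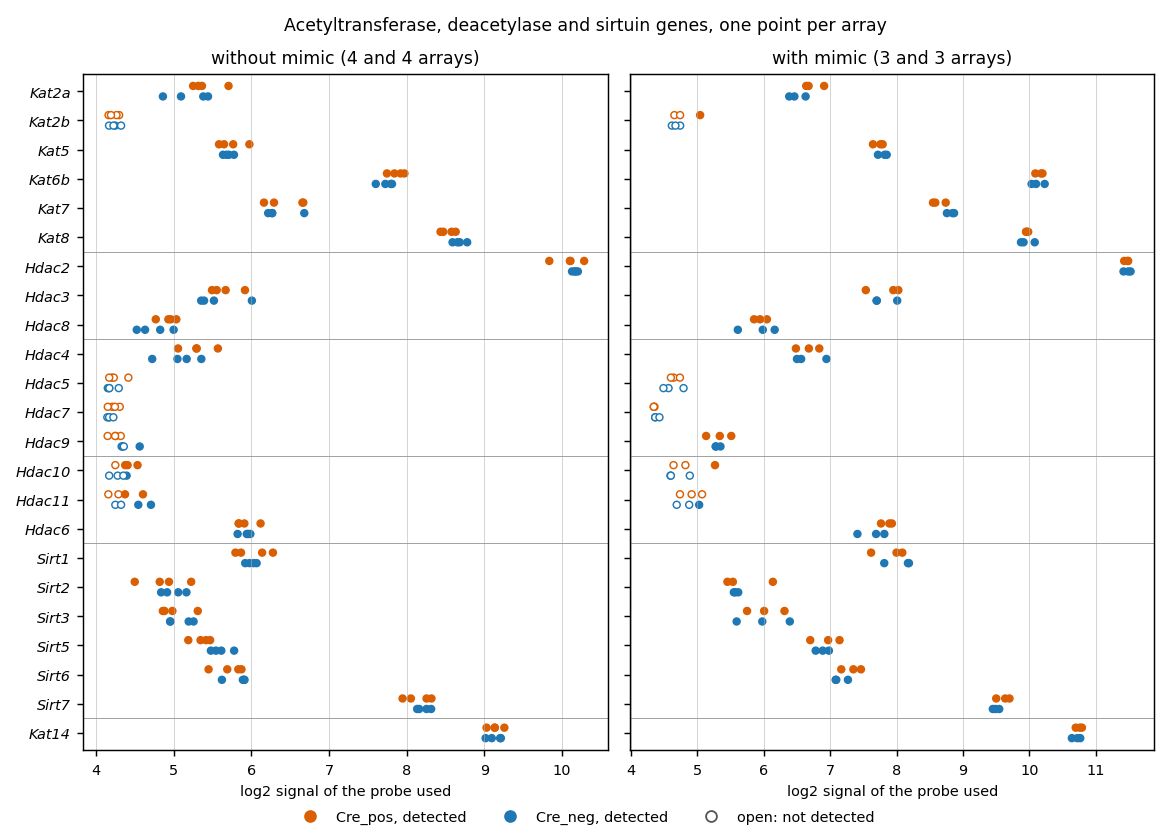
Log2 signal of the probe used for each acetyltransferase, deacetylase and sirtuin gene (rows, grouped by role) on each array, without mimic on the left and with mimic on the right. Cre_pos arrays (orange) are drawn above Cre_neg arrays (blue) and open circles were not detected. Orange and blue points interleave in most rows, and Hdac5 and Hdac7 are open throughout.

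Setting Cre-positive against Cre-negative oocytes asks how these transcripts differ once Cre has switched on the AGO2 transgene. Without mimic 52 members were tested and none passed a limma adjusted p under 0.05, where 0.0419% of all 9546 genes passed (4 genes, counting each probe with no single symbol as a gene of its own). At an unadjusted p under 0.05 there were 2 of 52 (3.85%), against 4.67% of all genes. The members' effects ran from -0.38 to 0.23 on the log2 scale, with 24 above and 28 below 0 and a median of -0.004. The median of all genes tested was -0.006. The smallest adjusted p of a member was 0.948.

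The fit gave a 95% interval for the Cre effect on the probe read for each member. All 52 members had a 95% interval inside -1 to 1 on the log2 scale, as did 99.8% of all genes. The interval lay inside -0.5 to 0.5 for 48 of 52 members (92.3%), against 91.6% of all genes. For Kdm1b the interval was -0.32 to 0.12, for Kmt2b -0.24 to 0.20, for Setdb1 -0.10 to 0.35 and for Hdac2 -0.32 to 0.14. The widest of the 52 intervals was that of Ehmt1, -0.63 to 0.15, whose effect was -0.24 with all arrays and 0.005 without Cre_pos replicate 4. Each interval rests on the spread between these samples, which may be technical, and was not adjusted for the number of members. Probes of 1 gene differed in effect by up to 0.39. For dim probes the size of a difference also depends on the background correction. An interval for the signal of 1 probe is thus not a bound on the transcript.

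Kdm5c, which removes H3K4 methylation, and Sirt5, a mitochondrial deacylase of succinyl-lysine, had the smallest p-values. Kdm5c (probe ILMN_2666640) had log2 signals of 5.98, 6.12, 5.76 and 6.06 in Cre-positive oocytes, against 6.31, 6.37, 6.87 and 5.87 in Cre-negative oocytes. All 4 Cre-positive values lay below 3 of the Cre-negative values, and the fourth Cre-negative value, 5.87, lay among them. The difference was -0.38 ± 0.162 SE (limma adjusted p = 0.948). The probes of Kdm5c disagreed, since the next brightest, detected on all 8 arrays, gave -0.085. With each array left out in turn the difference of Kdm5c ran from -0.54 to -0.18. It was -0.40 without Cre_pos replicate 4, -0.20 without Cre_neg replicate 3, which held the highest value, and -0.18 without Cre_neg replicate 2, where the other probe became the brightest.

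Sirt5 (probe ILMN_2711045) had log2 signals of 5.42, 5.34, 5.47 and 5.19 in Cre-positive oocytes, against 5.78, 5.54, 5.48 and 5.61 in Cre-negative oocytes. Every Cre-positive value lay below every Cre-negative value, by as little as 5.47 against 5.48. It was the only one of 52 members with Cre-positive values entirely below the Cre-negative ones, against 1.83% of all genes, and none lay entirely above, against 1.08%. The difference was -0.25 ± 0.107 SE (limma adjusted p = 0.948). It was -0.19 without Cre_pos replicate 4, -0.10 without background correction and -0.051 on its other probe.

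The next members by p, counted up to 5 in each direction, were on the higher side Hdac4 (0.23), Prmt3 (0.17), Kat2a (0.21), Hdac8 (0.18) and Kat6b (0.14), as log2 differences. On the lower side they were Kat8 (-0.15), Prmt7 (-0.14) and Ehmt1 (-0.24). Each of these had a limma adjusted p of 0.948, and several were smaller in size with 1 array left out. Ehmt1 was at 0.005 without Cre_pos replicate 4. Hdac4 was at 0.11 without Cre_neg replicate 1 and at 0.14 without Cre_pos replicate 4. Kat2a was at 0.10 without Cre_neg replicate 4 and at 0.11 without Cre_pos replicate 4. Prmt3 was at 0.11 without Cre_pos replicate 2, and Hdac8 at 0.11 without Cre_neg replicate 4. Probes disagreed in sign for Kat6b, whose other probes gave -0.046, 0.014 and 0.15. They also disagreed for Ehmt1, whose other probes gave 0.081, -0.02 and -0.053. The other probes of Prmt7 kept its sign but were smaller in size, at -0.088, -0.015 and -0.031. Prmt3, an arginine methyltransferase that acts on a ribosomal protein, had 6.23, 6.63, 6.34 and 6.49 in Cre-positive oocytes, against 6.24, 6.20, 6.28 and 6.26 in Cre-negative oocytes. The highest 3 Prmt3 values were Cre-positive, but the fourth Cre-positive value, 6.23, lay inside the narrow Cre-negative range.

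**Figure D4:**
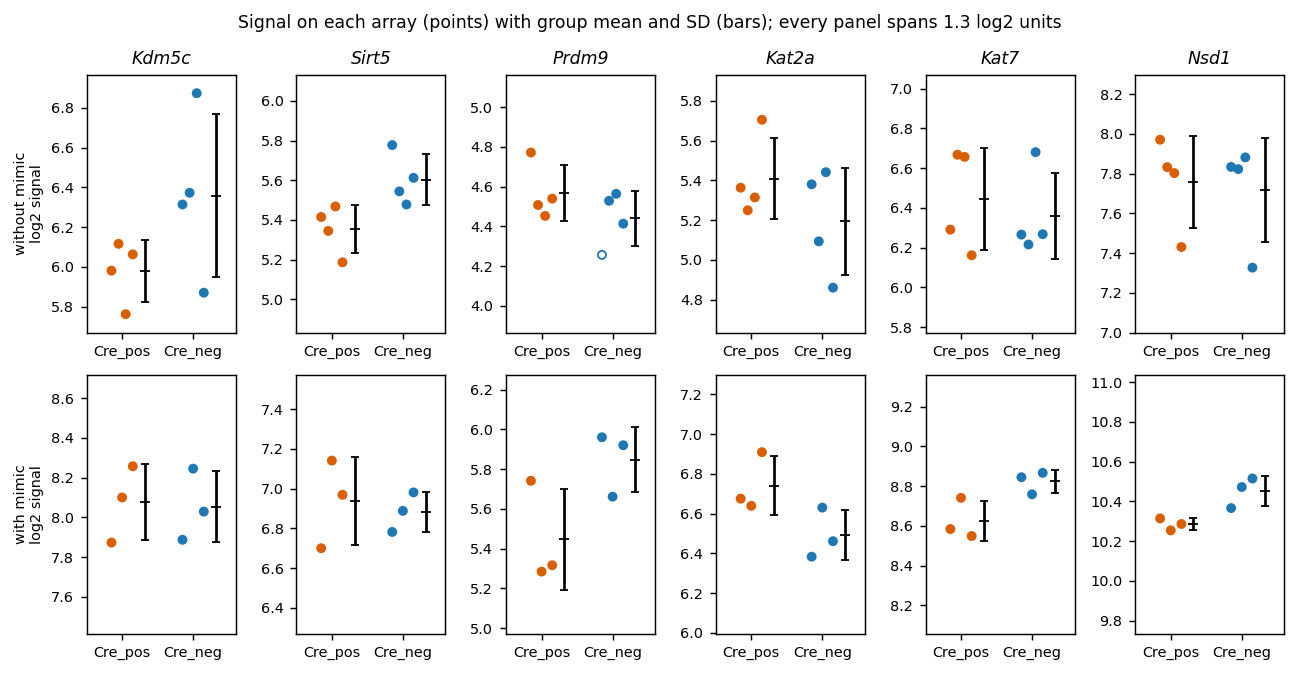
Log2 signal on each array for 6 members, without mimic (top) and with mimic (bottom), Cre_pos left of Cre_neg in each panel. Points are arrays, open where not detected, bars give the group mean and SD, and every panel spans the same range of log2 units. Cre_pos points lie below all Cre_neg points for Sirt5 in the top row and for Kat7 and Nsd1 in the bottom row, and above them for Kat2a in the bottom row. Kdm5c and Sirt5 were read on different probes in the top and bottom rows.

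With mimic 51 members were tested and none passed a limma adjusted p under 0.05, where 0.132% of all 9883 genes passed (13 genes). At an unadjusted p under 0.05 there was 1 of 51 (1.96%), against 7.5% of all genes. Effects ran from -0.40 to 0.29, with 27 above and 24 below 0, a median of 0.008 and a median of all genes of 0.002. All 51 had a 95% interval inside -1 to 1, as did 98.7% of all genes, and 39 (76.5%) inside -0.5 to 0.5, against 70.7%. The smallest adjusted p of a member was 0.604.

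That member was Prdm9 (probe ILMN_2765331), with log2 signals of 5.74, 5.28 and 5.32 in Cre-positive oocytes, against 5.96, 5.66 and 5.92 in Cre-negative oocytes. Both of the lower Cre-positive values lay below every Cre-negative value, and the third, 5.74, lay inside the Cre-negative range. The difference was -0.40 ± 0.15 SE (limma adjusted p = 0.604), and -0.12 without background correction. Without mimic the same probe had 4.77, 4.51, 4.45 and 4.54 in Cre-positive oocytes, against 4.26, 4.53, 4.56 and 4.41 in Cre-negative oocytes, the lowest of them not detected, a difference of 0.13 ± 0.11 SE in the other direction.

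Groups did not overlap for 5 of the 51 members with mimic. Kat2a, the acetyltransferase GCN5, was higher in every Cre-positive sample, with 6.67, 6.64 and 6.91 in Cre-positive oocytes, against 6.38, 6.63 and 6.46 in Cre-negative oocytes (difference 0.25 ± 0.113 SE, limma adjusted p = 0.687). It was the only member above, against 6.36% of all genes. Below were Kat7, Kdm1a, Nsd1 and Prdm4, 7.84% of 51 against 6.25% of all genes. Kat7, which acetylates H3K14 in the HBO1 complex, had 8.58, 8.74 and 8.55 in Cre-positive oocytes, against 8.85, 8.76 and 8.87 in Cre-negative oocytes (difference -0.20 ± 0.0928 SE, limma adjusted p = 0.709).

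Nsd1 had 10.31, 10.25 and 10.29 in Cre-positive oocytes, against 10.37, 10.47 and 10.52 in Cre-negative oocytes with mimic, a difference of -0.17 ± 0.0858 SE, and its other probe gave -0.18. Kdm1a had 9.42, 9.29 and 9.33 in Cre-positive oocytes, against 9.50, 9.45 and 9.46 in Cre-negative oocytes, a difference of -0.12 ± 0.0838 SE. For Prdm4, a zinc-finger member of the PRDM family, the difference was -0.12 ± 0.0818 SE, and its other probe, also detected on all 6 arrays, gave -0.032. These shares lie near those of all genes, and no member's groups stayed apart in the same direction in both sets, against 0.505% of 9109 genes.

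The remaining members with small p-values with mimic were Hdac6 (0.22), Prmt5 (0.29), Sirt6 (0.18) and Ehmt2 (0.21) on the higher side, as log2 differences, and Kdm8 (-0.28) and Suv39h2 (-0.15) on the lower side. Their limma adjusted p lay between 0.756 and 0.806. The probes disagreed in sign for Sirt6, whose 2 other probes gave -0.071 and -0.20, for Hdac6, whose other probe gave -0.048, for Kdm8, whose other probe gave 0.14, and for Suv39h2, whose 2 other probes gave -0.14 and 0.086. Without Cre_neg replicate 2 of that set Hdac6 was at 0.11, Ehmt2 at 0.099 and Kdm8 at -0.46. Kdm8 was at -0.14 without Cre_neg replicate 1, Sirt6 at 0.11 without Cre_pos replicate 1, and Ehmt2 at 0.34 without Cre_neg replicate 3 and 0.32 without Cre_pos replicate 2. Prmt5 had 6.67, 6.65 and 6.12 in Cre-positive oocytes, against 6.38, 6.01 and 6.16 in Cre-negative oocytes. Its probes also disagreed in sign, since its 2 other probes gave -0.12 and 0.097 with all arrays. Without Cre_pos replicate 1 of that set another probe became the brightest, and the difference read was -0.17. The first probe was then at 0.20, so the change of sign came with the change of probe. Without Cre_pos replicate 3 the difference was 0.48. Kdm8, which encodes JMJD5, had 7.45, 7.38 and 7.36 in Cre-positive oocytes, against 7.95, 7.31 and 7.77 in Cre-negative oocytes, where the Cre-positive values lay close together inside a wide Cre-negative range.

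**Figure D5:**
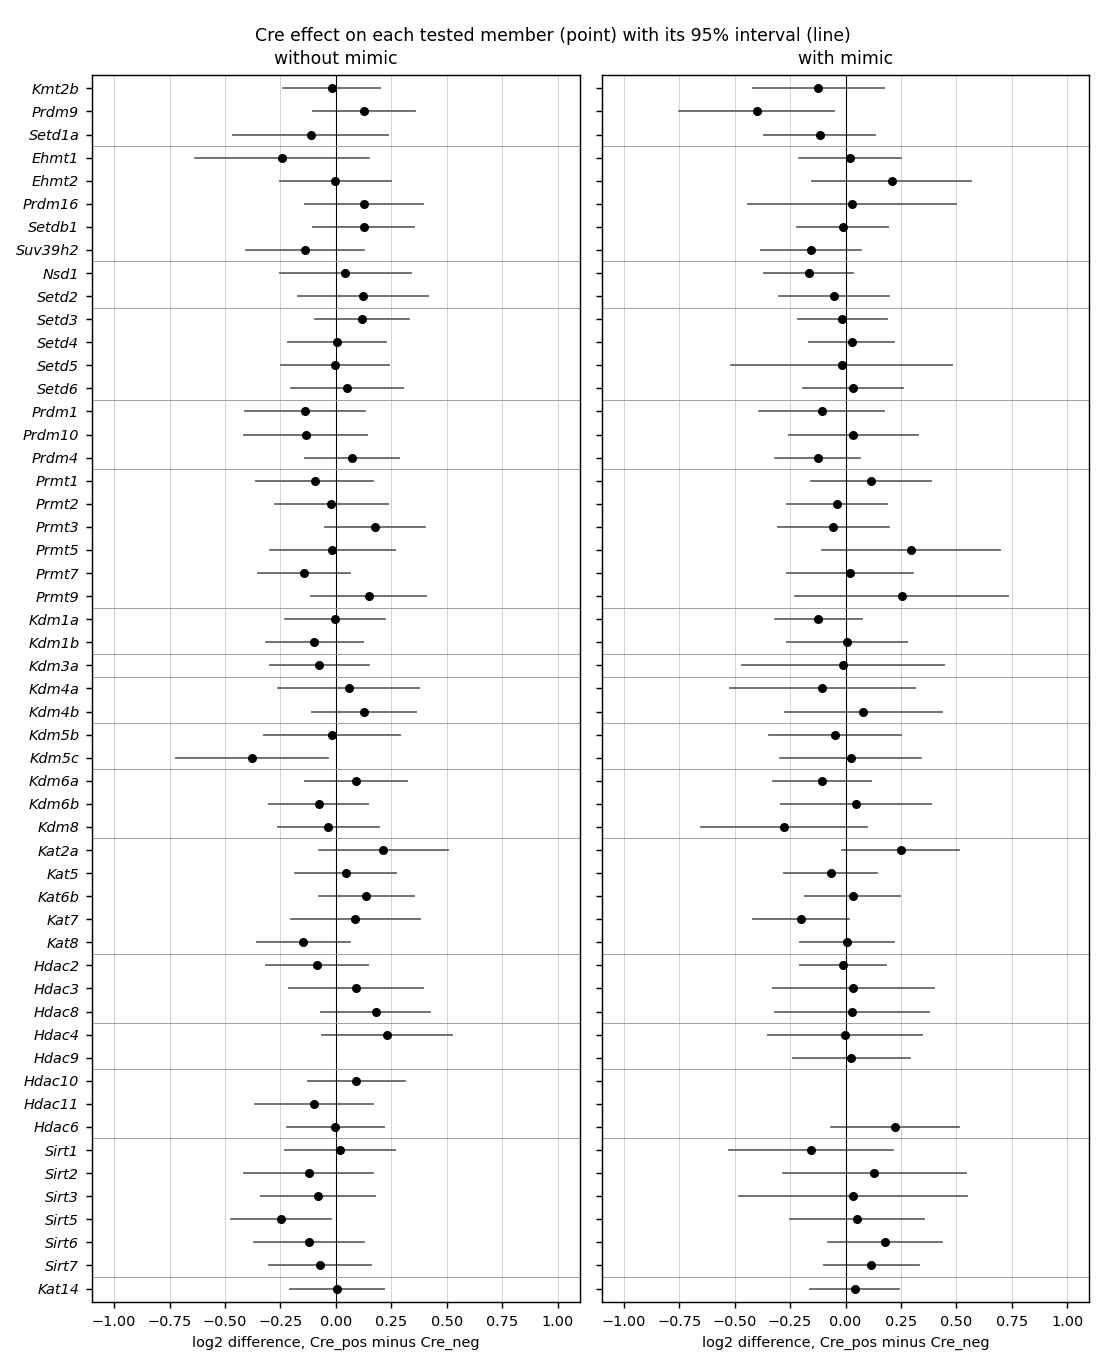
Log2 difference, Cre_pos minus Cre_neg, for each tested member (rows, grouped by role) without mimic (left, 52 members) and with mimic (right, 51 members). Points are the limma estimates and lines their 95% intervals. All intervals lie inside -1 to 1 and cross 0, except those of Kdm5c and Sirt5 without mimic and of Prdm9 with mimic.

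The difference between the Cre effects of the sets was tested for 50 members. None passed a limma adjusted p under 0.05, as did 0% of 9109 genes, and 1 of 50 (2%) had an unadjusted p under 0.05, against 4.54% of all genes. That member was Prdm9, whose Cre effect with mimic minus that without was -0.53 ± 0.18 SE (95% interval -0.91 to -0.14, limma adjusted p = 1). The 3 smallest p-values in each direction further held Sirt6 (0.30, interval -0.055 to 0.66), Sirt5 (0.30), Prdm4 (-0.20), Prmt3 (-0.23) and Hdac6 (0.23), as log2 differences of effects. Here Sirt5 was read on probe ILMN_2711045 in both sets, and its other probe had Cre effects of 0.053 with mimic and -0.051 without. The other Sirt6 probes had -0.071 and -0.20 with mimic, against -0.17 and -0.20 without. The other Hdac6 probe had -0.048 with mimic and -0.16 without, and that of Prdm4 -0.032 and 0.095.

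By role, no list had a member past the adjusted threshold in either direction or set. The 3 tested H3K4 methyltransferases had a median log2 difference of -0.019 without mimic and -0.12 with mimic, all 3 below 0 in the second set, as were 49.5% of all genes. The 5 tested H3K9 methyltransferases had medians of -0.003 and 0.021, and the 2 H3K36 methyltransferases 0.083 and -0.11. Without mimic Setd2 was at 0.12, and with each array left out it ran from -0.006 (without Cre_pos replicate 4) to 0.23. Nsd1 was at 0.043 and ran from -0.087 (without Cre_neg replicate 4) to 0.15. Arginine methyltransferases (6 tested) had medians of -0.018 and 0.068. Among demethylases the medians without mimic ran from -0.20 for the KDM5 family (2 tested) to 0.093 for the KDM4 family (2 tested). With mimic they ran from -0.11 for the KDM6 to KDM8 list (3 tested) to -0.012 for the KDM3, KDM4 and KDM5 lists (1, 2 and 2 tested). The KDM5 median without mimic holds the Kdm5c value of -0.38, where the next brightest probe gave -0.085. Kdm4a was at 0.058 without mimic, and with each array left out it ran from -0.069 (without Cre_pos replicate 4) to 0.18. The 5 tested acetyltransferases had medians of 0.087 and 0.007, and class I deacetylases 0.091 and 0.029. Of the 6 sirtuins, 5 lay below 0 without mimic (median -0.10) and 5 above 0 with mimic (median 0.085), where 52.2% of all genes lay below 0 without mimic and 50.5% above 0 with mimic. The sign of Sirt6 with mimic rests on 1 of its 3 probes. The largest single difference of a sirtuin was that of Sirt5 without mimic.

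The proteins that work with these enzymes were examined as a separate list of 75 genes on the array. It held subunits of COMPASS, which carries the H3K4 methyltransferases, of the HDAC corepressor complexes and of the acetyltransferase complexes, and factors of H3K9 methylation. Of 67 tested without mimic and 66 with mimic, none passed in either direction, beside 0.0419% and 0.132% of all genes. At an unadjusted p under 0.05 there were 2 higher (2.99%) and 1 lower (1.49%) without mimic, against 1.89% and 2.79% of all genes. With mimic 2 were higher (3.03%) and 0 lower, against 3.56% and 3.94% of all genes. Their median log2 differences were -0.019 and -0.025, beside -0.006 and 0.002 for all genes.

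Several probes of a gene gave a measure of how far a single probe can be read. Without mimic 22 members had more than 1 passing probe, and in 13 all of these had 1 sign. With mimic 23 had, and in 9 all had 1 sign. The median range between the probes of a gene was 0.14 on the log2 scale in each set. It was widest for Kdm6b without mimic, at 0.39, and for Kdm8 with mimic, at 0.42. Hdac1, which also belongs to a set of transcripts held down by endogenous siRNAs in oocytes, had a log2 difference of -0.017 ± 0.125 SE without mimic and -0.12 ± 0.096 SE with mimic (limma adjusted p = 0.996 and 0.836).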

How the data were processed

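Total RNA of 14 oocyte samples was hybridised to one-colour Illumina BeadChips after amplification, per the labels' protocols. The authors deposited raw tables with an intensity and a detection p-value per probe and array, per the file headers, and normalized tables in log2 units, whose values a quantile normalization of log2 raw intensity matched within 4.97e-14. The software behind these tables is not given in the sources used here. Before testing, nec from limma 3.58.1 (R 4.3.3, offset 16) corrected the raw intensity for background, and log2 values were quantile normalized separately for the 2 sets. Probes were kept if detected at p under 0.05 on at least 4 arrays without mimic or 3 with mimic, the size of 1 group, and the brightest probe stood for each gene. Groups were compared with limma (lmFit, eBayes, two-sided, Benjamini-Hochberg adjustment over all genes tested), and the difference of the Cre effects in a fit of all 4 groups. The number of arrays limits the precision. Gene symbols came from the platform annotation (23978 of 25697 probes had 1 symbol), and promoter and microRNA sequences from RefSeq. The files name no genome build. Only the limma fit was tested on simulated data, with planted effects larger than that of any member. Background correction, normalization, the detection filter and the choice of probe were not part of that test.

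Members and lists were chosen with earlier results of these data known. Named members were those with the 5 smallest p-values per direction and set, the 3 smallest per direction for the difference, and a list with known roles in oocytes or in sex linkage. Same-numbered replicates were checked for pairing by correlating their deviations from the group means. Without mimic these correlations ran from -0.0691 to 0.00845. With mimic they were 0.0378, 0.0771 and 0.215. There replicates 2 and 3 exceeded their highest correlation with another number (-0.0168 and -0.0215). The check thus does not settle pairing with mimic. The main fits did not treat the numbers as pairs, and fits with a replicate block are given below. Figures were drawn with matplotlib 3.10.9 in Python 3.11.15.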

Additional observations from a re-analysis of the deposited data

Results flagged for a closer look

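In 33 named members the 66 groups of 4 arrays without mimic were inspected for an array far from the others of its group, by the gap to the nearest array as a share of the group's range. In 4 of 66 groups this share was above Dixon's critical value for 4 samples, where chance flags about 1 in 20 groups. In Ehmt1, an H3K9 methyltransferase gene, Cre_pos replicate 4 lay low with a share of 0.87. In Nsd1, an H3K36 methyltransferase gene, Cre_neg replicate 4 lay low with 0.893. In Sirt6, a nuclear sirtuin gene, Cre_neg replicate 2 lay low with 0.926. In Kat7, an acetyltransferase gene, Cre_neg replicate 3 lay high with 0.889. The 4 arrays belong to both groups, and the cause was not tested.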

How the results depend on the processing

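In each of the 3 tests 0 members passed an adjusted p under 0.05 under every alternative run, including each array left out. These were a replicate block, no background correction, an offset of 50, median scaling, the deposited normalized values, testing with no filter, requiring detection on all arrays, testing each probe, trend and robust variances, and a spread shared by all groups (for the Cre tests). With the replicate block the members called stayed at 0, while all genes called went to 3 with mimic, against 13 without the block, and stayed at 4 without mimic. The smallest adjusted p of a member under any alternative was 0.395, for Prdm9 with mimic. Over all genes, alternatives called 2 to 5 without mimic, 2 to 26 with mimic and 0 to 6 for the difference.

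Of 66 named effects, 33 kept their sign in every alternative. Of their 1119 alternative values 82 had the other sign and 0 passed, and since no effect was called such changes were not counted as reversals. Without background correction, as in the deposited values, Sirt5 without mimic was at -0.10 and Prdm9 with mimic at -0.12. At a detection p under 0.01, 42 members were detected on every array without mimic and 43 with mimic, in place of 46 and 50. A slide block was not run, because the headers used here give no slides. Signal near background limits what can be said of dim genes such as Prdm9, Ehmt2 and Kdm3a.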
